A study of Homo sapiens with 4 samples.

Results

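Expression of 10 aldehyde dehydrogenase (ALDH) genes was followed in the human malignant glioma cell line GBM8401 and in a temozolomide-resistant line derived from it. The genes were taken by name: ALDH1A1, ALDH1A3, ALDH1B1, ALDH2, ALDH3A2, ALDH5A1, ALDH6A1, ALDH7A1, ALDH9A1 and ALDH18A1, 10 of the 58219 genes in the deposited table, and each matched 1 gene ID through GENCODE 29 symbols. Temozolomide (TMZ) is a DNA-alkylating drug given against glioblastoma. The resistant group held 2 libraries from cells kept in medium with 200 µM TMZ, renewed every few days over 140 days. The parental group held 2 libraries from the line without that selection. Cells of both groups were grown in RPMI1640 with 10% fetal bovine serum. Selection gave 1 resistant line, and both of its libraries stem from it, so the tests measure the spread between cultures of these lines and not between independently selected lines. The labels do not say whether the resistant cells still had drug in the medium at harvest.

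Most aldehyde dehydrogenases oxidise aldehydes to carboxylic acids with NAD+ or NADP+ as electron acceptor. Of the genes followed here, ALDH6A1 yields propionyl-CoA instead, and ALDH18A1 starts from glutamate and not from an aldehyde. Some members clear reactive aldehydes that arise from lipid peroxidation, alcohol or amines. Others carry a fixed step of metabolism, in retinoic acid synthesis, in the breakdown of valine, lysine or GABA (gamma-aminobutyric acid), or in carnitine and proline synthesis. In glioma research, the activity of the ALDH1A enzymes is widely used to mark stem-like cells, and ALDH1A3 is a known marker of the mesenchymal glioma state.

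The depth recovered from the steps in the values was 30759939 and 28524510 fragments in resistant libraries and 30475217 and 27019137 in parental ones. After the authors' scaling the totals were 23163310 and 24225039 in resistant and 24791254 and 25832511 in parental libraries. Replicates correlated at a Pearson r of 0.991 in resistant and 0.989 in parental cells over the log2 values of 16132 genes tested, against 0.965 to 0.971 between the groups, and no library stood apart. Of 12 glial and glioma markers, EGFR had 10958 and 11844 scaled fragments in resistant and 10606 and 12445 in parental cells, ALDH1L1 and SLC1A3 rose, and NES, VIM and CD44 fell. GFAP, S100B and AQP4 were near 0 and SOX2 was low, and these were not tested. Among markers of other cell types, 0 of 4 tested hematopoietic and 0 of 5 fibroblast markers changed. The summed fibroblast list was 10964 and 8967 scaled fragments in resistant cells against 10371 and 8296 in parental cells. The summed hematopoietic list was 171 and 145 against 172 and 124. Both sums were higher in replicate 1 of each group. Of 6 epithelial markers 2 rose (KRT8 and KRT18), and of 5 endothelial markers 2 fell (CDH5 and TEK). Over all genes tested, 16.2% rose and 20.9% fell. The summed epithelial list was 34141 and 36149 scaled fragments in resistant cells against 17606 and 19818 in parental cells. Most of it came from KRT8 (12537 and 14168 against 5946 and 6814) and KRT18 (20823 and 21366 against 10899 and 12520). EPCAM, CDH1, KRT5 and KRT14 did not pass the test. The summed endothelial list was 973 and 877 against 1207 and 1363. The part of these markers in the results below was not tested.

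The ALDH genes did not move as a block. All 10 passed the filter on low values, 3 were higher in resistant cells, 2 were lower and 5 did not pass the test (limma, Benjamini-Hochberg adjusted p under 0.05 over all genes). ALDH6A1, ALDH18A1 and ALDH7A1 rose, and ALDH1A3 and ALDH1B1 fell. Across all 16132 genes, 37.1% were called, 16.2% as higher and 20.9% as lower, so 5 of 10 ALDH genes is a share near that background. The median log2 fold change of the 10 genes was −0.03, against −0.02 over all genes tested. In 6 of the 10 the libraries of the groups did not overlap, where 68.6% of all genes showed no overlap. The share of called genes that were higher was 43.7% as deposited and 56.9% once each library was divided by its total. The count of called genes was 5991 with all libraries, 3528 without resistant replicate 1 and 3786 without resistant replicate 2. Among the 10 genes the number that rose was 3 with all libraries and 1, ALDH6A1, without resistant replicate 2. In bulk RNA, fewer cells of a type and less RNA per cell cannot be told apart.

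**Figure D1:**
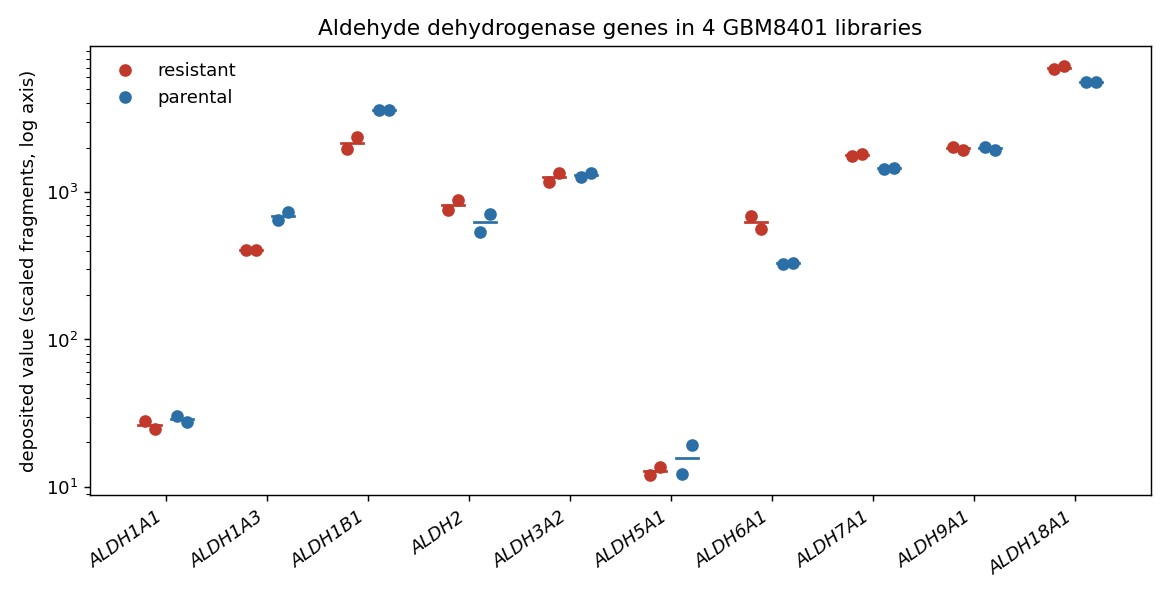
Deposited values (scaled fragments, log axis) of the 10 ALDH genes, with 1 point per library, resistant left of parental, and a bar at the mean of each group. ALDH1A3 and ALDH1B1 lie lower in both resistant libraries, ALDH6A1, ALDH7A1 and ALDH18A1 higher, and ALDH1A1 and ALDH5A1 stay below 31 in every library.

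The 250 bases before the RefSeq start of 4 genes with a call are shown, since these windows allow the genes that rose and those that fell to be set side by side. They are from RefSeq (GRCh38.p14), which held 9 of the 10 genes in its promoter table. ALDH2 was not among them. RefSeq and GENCODE starts differ, so the ALDH1A3 window lies inside the GENCODE gene span given for it here, and the ALDH6A1 and ALDH1B1 windows overlap the edge of theirs. Capitals mark CCAAT boxes (CCAAT), the core of the cyclic AMP response element (TGACGT) and E-boxes (CACGTG), each on either strand. ALDH6A1 and ALDH18A1 rose, and ALDH1B1 and ALDH1A3 fell.
ALDH6A1, chr14:74084454-74084703, minus strand: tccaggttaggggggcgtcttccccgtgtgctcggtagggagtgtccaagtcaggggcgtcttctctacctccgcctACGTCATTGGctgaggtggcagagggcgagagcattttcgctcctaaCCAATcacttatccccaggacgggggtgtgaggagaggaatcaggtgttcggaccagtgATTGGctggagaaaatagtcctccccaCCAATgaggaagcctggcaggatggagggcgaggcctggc
ALDH18A1, chr10:95656712-95656961, minus strand: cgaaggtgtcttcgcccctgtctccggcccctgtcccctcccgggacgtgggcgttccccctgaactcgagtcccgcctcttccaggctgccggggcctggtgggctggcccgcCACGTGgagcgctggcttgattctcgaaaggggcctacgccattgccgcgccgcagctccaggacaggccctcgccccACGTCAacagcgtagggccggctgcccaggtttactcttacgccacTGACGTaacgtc
ALDH1B1, chr9:38392452-38392701, plus strand: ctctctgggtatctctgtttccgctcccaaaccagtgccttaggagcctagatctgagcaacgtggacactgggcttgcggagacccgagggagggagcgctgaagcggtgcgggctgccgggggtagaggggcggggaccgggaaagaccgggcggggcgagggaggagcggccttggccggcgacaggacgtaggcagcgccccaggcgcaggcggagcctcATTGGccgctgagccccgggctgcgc
ALDH1A3, chr15:100879581-100879830, plus strand: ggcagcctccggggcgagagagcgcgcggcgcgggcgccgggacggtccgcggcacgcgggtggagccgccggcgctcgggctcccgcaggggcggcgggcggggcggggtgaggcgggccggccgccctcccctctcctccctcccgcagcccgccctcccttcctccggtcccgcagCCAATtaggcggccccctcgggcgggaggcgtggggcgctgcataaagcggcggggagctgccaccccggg

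The ALDH6A1 window held 4 CCAAT boxes, a number reached in 0.874% of the 35116 windows of this length in the table, where 32% held at least 1. It also held 1 response element core, which overlaps a CCAAT box by its last base. The ALDH18A1 window held no CCAAT box but 2 response element cores and 1 E-box. At least 1 such core was found in 7.1% of all windows and at least 1 such E-box in 6.34%. The ALDH1B1 and ALDH1A3 windows each held 1 CCAAT box and neither of the other marked motifs. The GC box (GGGCGG), which is not marked and occurs in 42.6% of all windows, matched 2 times in ALDH1B1 and 6 times in ALDH1A3, and 0 times in ALDH6A1 and ALDH18A1. The ALDH7A1 window, not shown, held 1 CCAAT box and 3 GC boxes. Genes without a call held some of these motifs too. ALDH1A1 had 1 CCAAT box, ALDH9A1 2 GC boxes and ALDH5A1 1 GC box. The second start of ALDH3A2 had 1 E-box, 1 CCAAT box and 4 GC boxes, and its first start had none of them. No response element core was found in the windows of these genes. The sites bound by ATF4 with C/EBP (TGATGNAA) and the antioxidant response element (TGACNNNGC), found in 3.14% and 10.9% of all windows, matched in none of the 9 genes, the second start of ALDH3A2 included. GC content was 59.6% for ALDH6A1, 68.8% for ALDH18A1, 70.4% for ALDH1B1 and 82.4% for ALDH1A3. These matches describe letters in the windows, and binding was not measured.

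Retinoic acid is made from retinaldehyde by the cytosolic ALDH1A enzymes, and of these ALDH1A3 was lower in resistant cells while ALDH1A1 did not pass the test. ALDH1A3 (chromosome 15, 100877714 to 100916626, plus strand) had 407 and 404 scaled fragments in resistant libraries and 643 and 729 in parental ones. Both resistant libraries lay below both parental ones. The means were 405.8 ± 2.22 in resistant and 686.0 ± 60.15 in parental cells (SD, n = 2 each). The log2 fold change was −0.75 ± 0.11 (SE), 1.69-fold lower in resistant cells (limma, adjusted p = 0.00142). An antisense gene, AC015712.2, covers 27.5% of the ALDH1A3 exon bases on the other strand. It was listed separately at 67.8 and 68.8 in resistant and 70.8 and 92.7 in parental cells and did not pass the test (log2 fold change −0.24, limma adjusted p = 0.443). The labels name a strand-specific library kit, but the strand setting of the counting is not given. Whether reads of ALDH1A3 and of this gene were kept apart in the shared bases is therefore not known.

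ALDH1A1, the other retinaldehyde dehydrogenase of the set and a common stem cell marker, rested on few fragments. It had 27.9 and 24.6 in resistant libraries against 30.1 and 27.7 in parental ones, from 37 and 29 fragments against 37 and 29. The groups overlapped. Its log2 fold change was −0.14 (95% interval −0.82 to 0.54, limma adjusted p = 0.76). Changes anywhere within that interval are compatible with the values. The ratio of ALDH1A3 to ALDH1A1 values, which is free of library scaling but not of gene length, was 14.6 and 16.4 in resistant and 21.4 and 26.3 in parental libraries. ALDH1A2, the remaining retinaldehyde dehydrogenase of this subfamily, had 15.1 and 13.6 against 13.0 and 3.82 (log2 fold change 0.90 ± 0.56, limma adjusted p = 0.248). With 1 library left out its log2 fold change ran from 0.13 to 1.67, and it passed as higher without parental replicate 1 (adjusted p = 0.0403).

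Of 25 genes of retinoid handling and signalling, 18 were tested, 4 rose, 1 fell and 13 did not pass, with a median log2 fold change of 0.17. TGM2, the transglutaminase gene that retinoic acid is known to induce, had 51131 and 56595 in resistant against 36036 and 40872 in parental cells, 1.40-fold higher (limma adjusted p = 0.00294). The TGM2 call was lost without the trend and robust moderation (adjusted p = 0.0603). DHRS3, which reduces retinaldehyde back to retinol, was 1.80-fold higher at 126 and 167 against 81.3 and 79.4 (limma adjusted p = 0.0134), and this call was lost without resistant replicate 2, with 0.140 as the highest adjusted p over the alternatives. RARA, the alpha retinoic acid receptor, fell 1.37-fold, to 494 and 502 in resistant cells against 710.2 and 652 in parental cells (limma adjusted p = 0.0109). That call was lost without resistant replicate 1 or 2, with an adjusted p of at most 0.0756.

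ALDH1B1 and ALDH2 are mitochondrial enzymes that share acetaldehyde as a substrate, and ALDH1B1 fell while ALDH2 was higher in both resistant libraries without passing the test. ALDH1B1 (chromosome 9, 38392664 to 38398661, plus strand) had 1965 and 2355 scaled fragments in resistant libraries and 3599.7 and 3623 in parental ones. The resistant libraries lay below both parental ones. Its means were 2160.2 ± 275.5 in resistant and 3611 ± 16.2 in parental cells (SD, n = 2 each), a log2 fold change of −0.75 ± 0.10 (SE, limma adjusted p = 8.13e-04). This was 1.68-fold lower in resistant cells.

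ALDH2 (chromosome 12, 111766887 to 111817529, plus strand), the main enzyme of acetaldehyde clearance, had 754 and 885 in resistant libraries and 540.0 and 708 in parental ones. Both resistant libraries were above both parental ones. The log2 fold change was 0.40 ± 0.15 (SE, 95% interval 0.06 to 0.74), and it did not pass after adjustment over all genes (limma adjusted p = 0.0663). It passed in 6 of 13 alternative settings, always as higher, among them all 3 other scalings, and its adjusted p ran from 3.71e-05 to 0.309. The ratio of ALDH1B1 to ALDH2, which does not depend on the scaling of a library, was 2.61 and 2.66 in resistant against 6.67 and 5.12 in parental libraries. Of the 50-base stretches of ALDH2 transcripts, 6.43% also occur in AC002996.1, an overlapping gene on the same strand. That gene was listed at 146 and 71.5 in resistant and 123 and 100.04 in parental cells (limma adjusted p = 0.819).

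Other enzymes that reduce or oxidise aldehydes went both ways. Of 20 alcohol dehydrogenases, reductases and oxidases, 12 were tested, 3 rose, 4 fell and 5 did not pass, with a median log2 fold change of 0.02. AOX1, an aldehyde oxidase, had 754 and 692 in resistant against 2039 and 2027 in parental cells, 2.81-fold lower (limma adjusted p = 3.79e-05). PTGR1, a reductase of prostaglandins and of lipid-derived enals, was 1.93-fold higher at 2441 and 2322 against 1203 and 1267 (limma adjusted p = 1.56e-04). CBR1, a carbonyl reductase, was 1.47-fold lower (limma adjusted p = 0.00121). ADH5, the glutathione-dependent formaldehyde dehydrogenase, had 2564 and 2556 against 2711 and 2600.5 (limma adjusted p = 0.631).

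Fatty aldehydes from sphingolipids and ether lipids are oxidised by ALDH3A2, the microsomal member whose loss causes Sjögren-Larsson syndrome. ALDH3A2 (chromosome 17, 19648136 to 19677598, plus strand) had 1164 and 1351 in resistant and 1275 and 1343 in parental libraries, so the groups overlapped. Its log2 fold change was −0.06 (95% interval −0.29 to 0.17, limma adjusted p = 0.675). Around it, 14 of 15 genes of fatty aldehyde, ether lipid and sphingolipid turnover were tested, 2 rose and 4 fell, with a median of −0.21. FAR1, which makes fatty alcohol for ether lipids, was 1.58-fold lower (2389 and 2403 against 3689 and 3895, limma adjusted p = 4.44e-04). AGPS, a peroxisomal ether lipid enzyme, was 1.54-fold lower and the sphingosine kinase SPHK1 1.74-fold lower (limma adjusted p = 9.98e-04 and 0.00139). HACL1, a lyase of branched fatty acids that yields fatty aldehydes, was 1.43-fold higher (limma adjusted p = 0.00214).

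ALDH6A1 had the largest change of the 10 genes. It encodes the mitochondrial methylmalonate semialdehyde dehydrogenase, which yields propionyl-CoA late in valine and thymine breakdown. ALDH6A1 (chromosome 14, 74056850 to 74084493, minus strand) had 689 and 566 scaled fragments in resistant libraries and 327 and 329.8 in parental ones. The resistant libraries lay well above the parental ones. The means were 627 ± 87.3 in resistant and 328 ± 2.0 in parental cells (SD, n = 2 each), a log2 fold change of 0.92 ± 0.13 (SE, limma adjusted p = 0.00104). This was 1.90-fold higher in resistant cells, and the log2 fold change ran from 0.78 to 1.07 over 13 alternative settings. BBOF1 overlaps 10% of the ALDH6A1 exon bases on the other strand, and at 55.0 and 45.9 in resistant and 48.0 and 40.2 in parental cells it did not pass the test (limma adjusted p = 0.614). Whether reads of ALDH6A1 and BBOF1 were kept apart in the shared bases is likewise not known.

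In branched-chain amino acid and propionate breakdown 8 genes rose and 0 fell of 23, all tested, with a median log2 fold change of 0.17, where 16.2% of all genes were called higher. PCCA and PCCB, the subunits of propionyl-CoA carboxylase, act on the product of ALDH6A1. PCCA had 744 and 735 in resistant against 338 and 394 in parental cells, 2.03-fold higher (limma adjusted p = 4.66e-04). PCCB had 3535 and 3485 against 2506 and 2561, 1.39-fold higher (limma adjusted p = 0.00178). DBT, a subunit of the branched-chain ketoacid dehydrogenase, was 1.39-fold higher (limma adjusted p = 0.00351). The other 5 that rose, named after their values were seen, were BCKDHA (1.49-fold), BCKDHB (1.31-fold), the phosphatase gene PPM1K (1.33-fold), ECHS1 (1.52-fold) and ACADSB (1.28-fold). The calls of all 5 were lost without the trend and robust moderation, with adjusted p of 0.0678 for BCKDHA, 0.0624 for BCKDHB, 0.0578 for PPM1K, 0.0556 for ECHS1 and 0.0804 for ACADSB. Without resistant replicate 2, those of BCKDHB, PPM1K and ACADSB were lost (0.216, 0.102 and 0.182). Those of BCKDHB and ACADSB were also lost without resistant replicate 1 or parental replicate 1, and that of BCKDHB without parental replicate 2. ECHS1 and ACADSB lie on chromosome 10 beyond 90 Mb, where coding genes were often higher. HIBCH and HIBADH, which act between ECHS1 and ALDH6A1 on valine, did not pass, at 415 and 450.1 against 381 and 490.5 for HIBCH and 1069 and 1013 against 868 and 990.5 for HIBADH (limma adjusted p = 1 and 0.23).

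**Figure D2:**
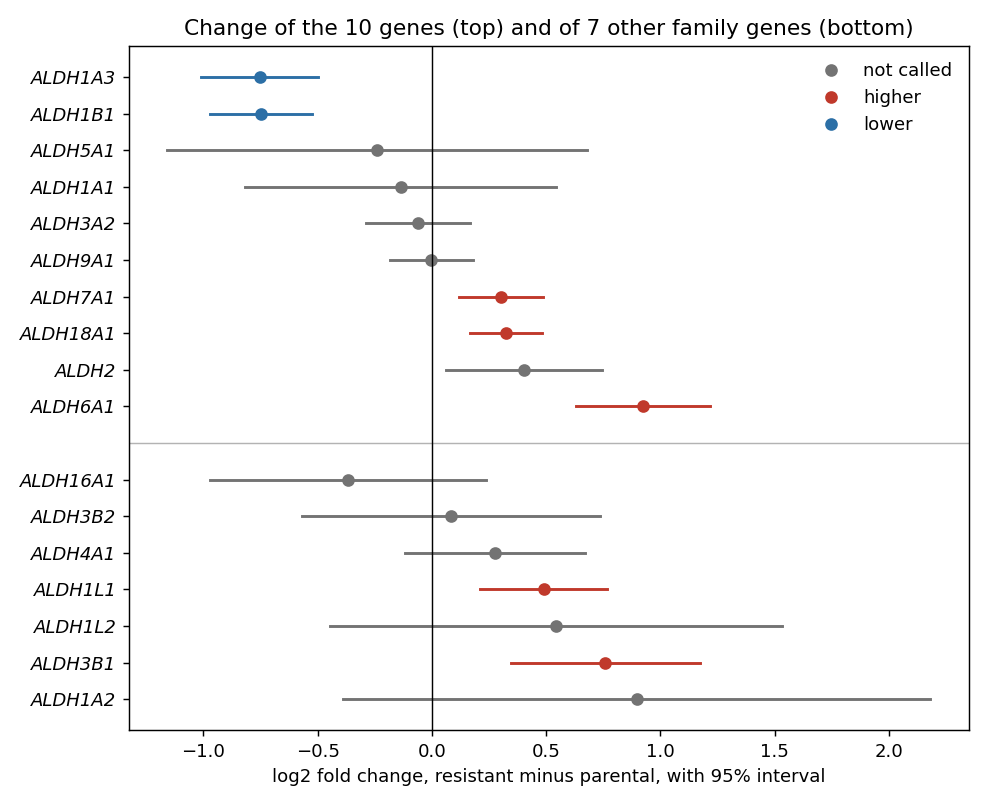
Log2 fold change, resistant minus parental, of the 10 ALDH genes (top) and of 7 other tested ALDH genes (bottom), with 95% intervals from limma and colour for the call. ALDH6A1 stands at 0.92 and ALDH1A3 and ALDH1B1 at −0.75, and the intervals of ALDH1A1 and ALDH5A1 are wide.

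ALDH7A1, called antiquitin, oxidises the semialdehyde of the lysine breakdown pathway and also clears lipid-derived aldehydes. ALDH7A1 (chromosome 5, 126531200 to 126595418, minus strand) had 1750.05 and 1827 in resistant and 1446 and 1455 in parental libraries, without overlap. The means were 1788 ± 54.3 in resistant and 1450.4 ± 6.78 in parental cells (SD, n = 2 each). The rise was small, 1.23-fold, with a log2 fold change of 0.30 ± 0.08 (SE, limma adjusted p = 0.0191). The call was lost in 4 of 13 alternative settings, without parental replicate 1, without resistant replicate 1 or 2 and without the mean-variance trend and robust moderation, with an adjusted p of at most 0.147. A processed pseudogene, ALDH7A1P1, shares 1.84% of the 50-base stretches of ALDH7A1 transcripts. It was listed at 30.9 and 31.4 in resistant and 33.4 and 26.8 in parental cells. Of 10 genes of lysine breakdown 8 were tested, 3 rose and 1 fell. AADAT, the aminoadipate aminotransferase that acts on the product of ALDH7A1, fell 1.76-fold, to 160.4 and 144 in resistant cells against 256 and 281 in parental cells (limma adjusted p = 0.00382). DHTKD1, which acts after AADAT, was 1.28-fold higher (limma adjusted p = 0.0129) and PIPOX, an oxidase of pipecolate, 2.79-fold higher at a low level (30.9 and 24.6 against 8.95 and 9.55, limma adjusted p = 0.0135). The DHTKD1 call was lost in 4 and that of PIPOX in 2 of their alternatives, in each case without resistant replicate 1 and without resistant replicate 2, and for DHTKD1 also without parental replicate 1 and without the trend and robust moderation (adjusted p at most 0.0882 and 0.126). AASS, the first enzyme of the pathway, did not pass (limma adjusted p = 0.167).

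ALDH18A1 was the most abundant of the 10 genes and rose modestly. It encodes the mitochondrial pyrroline-5-carboxylate synthase, which starts proline and ornithine synthesis from glutamate. ALDH18A1 (chromosome 10, 95605929 to 95656706, minus strand) had 6849 and 7132 in resistant and 5549 and 5609 in parental libraries, without overlap. The means were 6991 ± 200.3 in resistant and 5579 ± 42.8 in parental cells (SD, n = 2 each). The log2 fold change was 0.33 ± 0.07 (SE, limma adjusted p = 0.00736), a 1.25-fold rise. The call was lost without resistant replicate 2 (adjusted p = 0.0564) and without the trend and robust moderation (adjusted p = 0.0718), the 2 highest of 13 alternatives.

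ALDH18A1 lies in the distal part of chromosome 10. Of 231 tested coding genes on chromosome 10 that start beyond 90 Mb, 55.8% rose and 3.03% fell, with a median log2 fold change of 0.47, against 15.2% and 24.1% of the other 13082 tested coding genes. Of the 10 tested coding genes nearest to ALDH18A1, 6 rose and 1 fell, with a median of 0.59, so its 0.33 lay below the middle of its neighbourhood. Whether its rise is separate from that of the region was not tested. The other 9 ALDH genes had neighbours with medians from −0.23 to 0.28. Of the 10 neighbours of ALDH1B1, 4 fell and 2 rose, with a median of −0.20, and 8 lay above ALDH1B1. These were not all close by. CBWD5, ZNF658 and CBWD3 start at 65668805, 66856426 and 68232003, where ALDH1B1 ends at 38398661. ALDH6A1 lay above all 10 of its neighbours, whose median was 0.09, and ALDH1A3 below all 10 of its neighbours, whose median was −0.07.

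**Figure D3:**
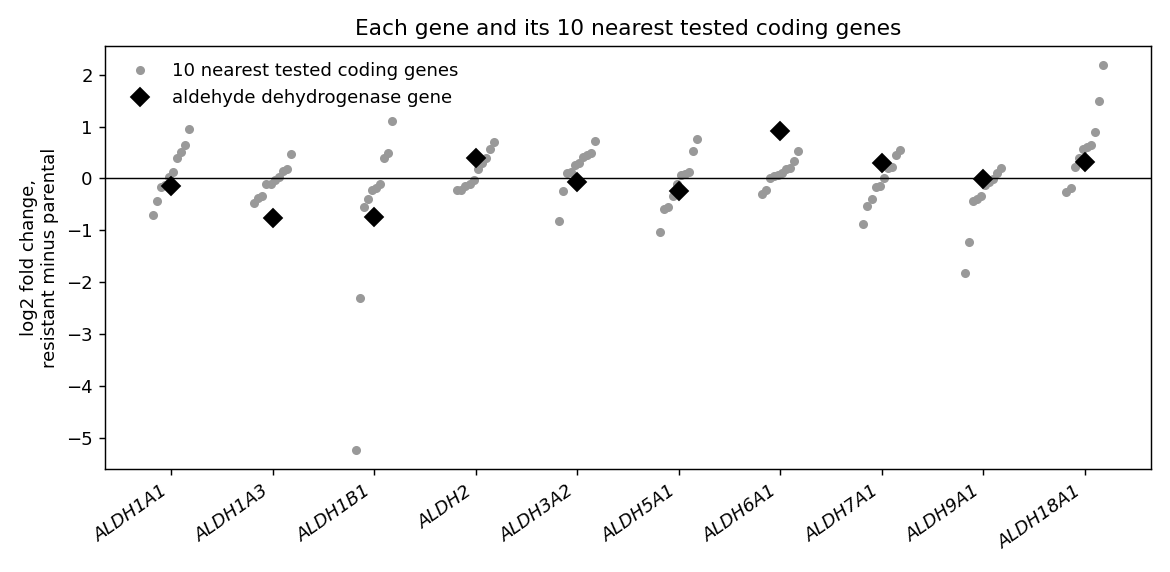
Log2 fold change, resistant minus parental, of each ALDH gene (diamond) and of the 10 nearest tested coding genes on its chromosome, 5 on each side (grey points, sorted by value). The neighbours of ALDH18A1 are mostly above 0, ALDH6A1 lies above its neighbours and ALDH1A3 below its own.

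PYCR1, a mitochondrial reductase that completes proline, did not pass the test. It had 2465 and 2254 in resistant and 2148 and 2273 in parental cells, a log2 fold change of 0.09 ± 0.08 (SE, limma adjusted p = 0.426). The ratio of ALDH18A1 to PYCR1 was 2.78 and 3.16 in resistant and 2.58 and 2.47 in parental libraries. Of 11 genes of proline, ornithine and glutamate handling 8 were tested, 2 rose and 1 fell. ASNS, the asparagine synthetase gene, was 3.26-fold higher at 5283 and 3574 against 1367 and 1295 (limma adjusted p = 8.04e-04). The ornithine aminotransferase gene OAT was 1.17-fold higher (limma adjusted p = 0.0391). OAT also lies on chromosome 10 beyond 90 Mb. Its call was lost in 6 of 13 alternatives, without each of the 4 libraries in turn, without the trend and robust moderation and without the filter on low values (adjusted p at most 0.176). ALDH4A1, which oxidises pyrroline-5-carboxylate in proline breakdown, had 299 and 299.8 in resistant and 209.9 and 290.2 in parental cells (log2 fold change 0.28 ± 0.17, limma adjusted p = 0.243). With 1 library left out its log2 fold change ran from 0.04 to 0.51, and it passed as higher without parental replicate 2 (adjusted p = 0.0357).

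ALDH5A1, the succinic semialdehyde dehydrogenase that completes GABA breakdown in mitochondria, rested on at most 20 fragments in a library. ALDH5A1 (chromosome 6, 24494852 to 24537207, plus strand) had 12.0 and 13.6 in resistant and 12.2 and 19.1 in parental libraries, from 16 and 16 against 15 and 20 fragments. The groups overlapped, and the 95% interval of the log2 fold change ran from −1.16 to 0.68 (limma adjusted p = 0.684). ABAT, the GABA transaminase that makes its substrate, was 2.94-fold higher at 434.5 and 384 in resistant against 138 and 139 in parental cells (log2 fold change 1.55 ± 0.14, limma adjusted p = 1.83e-04).

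ALDH9A1 (chromosome 1, 165662216 to 165698863, minus strand) had the log2 fold change nearest to 0 of the 10 genes. It oxidises trimethylaminobutyraldehyde in carnitine synthesis and aminobutyraldehyde from polyamines. It had 2029 and 1942 in resistant and 2035 and 1945 in parental libraries, and the groups overlapped. The means were 1986 ± 61.6 and 1989.6 ± 63.5 (SD, n = 2 each), and the 95% interval of the log2 fold change ran from −0.18 to 0.18 (limma adjusted p = 0.983). TMLHE, the first enzyme of carnitine synthesis, was named after its values were seen. It was 1.48-fold higher at 545 and 502 against 367 and 338 (limma adjusted p = 0.00629), and the call was lost without resistant replicate 1 (adjusted p = 0.0674).

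In GABA, amine and polyamine turnover, 15 of 19 genes were tested, 4 rose, 4 fell and 7 did not pass, with a median log2 fold change of 0.03. The spermidine synthase gene SRM had 1111 and 1017 in resistant against 2081 and 2062 in parental cells, 1.95-fold lower (limma adjusted p = 1.74e-04). The spermine synthase gene SMS was 1.82-fold lower at 3063 and 2950.4 against 5751 and 5216 (limma adjusted p = 1.93e-04). Named after their values were seen, ODC1, the ornithine decarboxylase gene, was 2.52-fold lower (limma adjusted p = 3.68e-04) and AMD1, which makes the aminopropyl donor, 1.78-fold lower (2.97e-04). SAT1, which acetylates polyamines, and MAOA, monoamine oxidase A, were also named after their values were seen, and were 1.58-fold and 1.90-fold higher (limma adjusted p = 0.00131 and 9.10e-04). The polyamine oxidase genes PAOX, at 14.3 and 14.4 against 6.51 and 4.78, and SMOX, at 204 and 184 against 225 and 287, did not pass (limma adjusted p = 0.0581 and 0.0993).

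**Figure D4:**
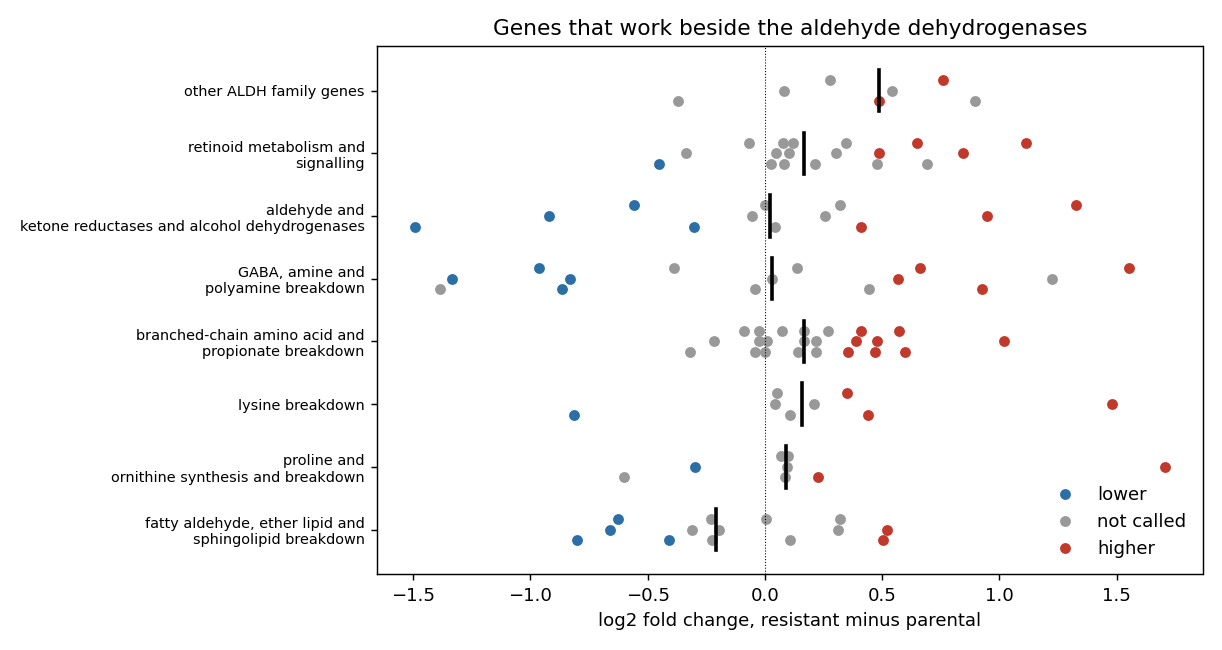
Log2 fold change, resistant minus parental, of the tested genes in 8 lists of genes that work beside the ALDH genes, 1 point per gene, coloured by call, with a black bar at the median of the list. The branched-chain list has 8 genes called higher and 0 lower, and the GABA, amine and polyamine list has 4 on each side.

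Of the 9 other ALDH genes 7 were tested, 2 rose, 0 fell and 5 did not pass, with a median log2 fold change of 0.49. ALDH1L1, a folate enzyme and astrocyte marker, had 626 and 712 in resistant against 444 and 509 in parental cells, 1.40-fold higher (limma adjusted p = 0.0141). ALDH3B1, which oxidises lipid-derived aldehydes, was 1.69-fold higher at 1977 and 2323 against 1065 and 1506 (limma adjusted p = 0.0152). Both calls were lost without resistant replicate 2 and without the trend and robust moderation (adjusted p at most 0.124 and 0.0794). ALDH16A1 had 393 and 574 against 500.3 and 752 (limma adjusted p = 0.299), ALDH3B2 120.5 and 90.02 against 128 and 75.5 (0.848) and the mitochondrial folate enzyme ALDH1L2 27.1 and 16.1 against 18.7 and 10.5 (0.365). ALDH16A1 was called lower with the replicate number as a block (adjusted p = 6.16e-04) and without parental replicate 1 (0.0425). ALDH3A1 and ALDH8A1 were at most 1.91 scaled fragments in every library and were not tested. The shares over all genes tested, to set beside each list count given here, were 16.2% called higher and 20.9% called lower. Over the 8 lists together, each gene counted once, 28 of 105 tested genes rose and 15 fell, with a median of 0.11. The number that rose was 17 without resistant replicate 1 and 16 without resistant replicate 2.

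Levels of different genes were compared per kilobase of exon, after each library was brought to the same total. On this scale ALDH18A1 was highest, at 78.5 and 78.2 in resistant and 59.4 and 57.7 in parental libraries. ALDH1B1 was second, at 26.9 and 30.8 in resistant and 46.0 and 44.5 in parental libraries, followed by ALDH9A1 at 26.5 and 24.2 against 24.8 and 22.8. Among 13313 tested coding genes, the mean level of these 3 stood at the percentiles 96.8, 92.8 and 87.7. In resistant cells these 2 genes came close to each other, 26.9 being the lowest ALDH1B1 and 26.5 the highest ALDH9A1 library. ALDH3A2 came next at 7.78 and 8.64 against 7.96 and 8.05, at percentile 61.

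A group of 4 genes lay at 1.91 to 4.89, and its order differed between the groups. In resistant cells ALDH6A1 (4.45 and 3.50) overlapped both ALDH7A1 (4.20 and 4.20) and ALDH2 (3.35 and 3.76). Both ALDH7A1 values lay above both ALDH2 values, and ALDH1A3 (3.05 and 2.89) was lowest. In parental cells ALDH1A3 (4.50 and 4.89) was highest, then ALDH7A1 (3.25 and 3.14), ALDH2 (2.24 and 2.82) and ALDH6A1 (1.98 and 1.91). ALDH1A1 (0.42 and 0.36 against 0.43 and 0.38) and ALDH5A1 (0.094 and 0.10 against 0.089 and 0.13) closed the order. With the longest annotated transcript as length, ALDH7A1 stood at 15.2 and 15.2 in resistant against 11.8 and 11.4 in parental cells, since its exon union spans 17970 bases against 4964 for that transcript. The order above depends on the length used. With the longest transcript, ALDH7A1 lay above ALDH1A3 (6.6 and 7.2) in parental cells and above ALDH3A2 (12.8 and 14.2) in resistant cells. ALDH1A3 (4.48 and 4.25) then lay above ALDH2 (3.40 and 3.82) in resistant cells. ALDH1B1 (27.7 and 31.7) and ALDH9A1 (32.5 and 29.7) then overlapped in resistant cells.

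Shares within the summed level of the 10 genes do not depend on how libraries were scaled. ALDH18A1 made up 50.6% and 49.9% of the sum in resistant libraries and 39.4% and 39.4% in parental ones. ALDH1B1 made up 17.3% and 19.7% in resistant against 30.5% and 30.4% in parental libraries. ALDH9A1 held 17.1% and 15.5% against 16.5% and 15.6%, and ALDH6A1 2.87% and 2.23% against 1.31% and 1.31%. With the longest transcript as length the share was 46.3% and 45.8% against 36.8% and 36.8% for ALDH18A1. For ALDH1B1 it was 14.6% and 16.6% against 26.1% and 26.0%.

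**Figure D5:**
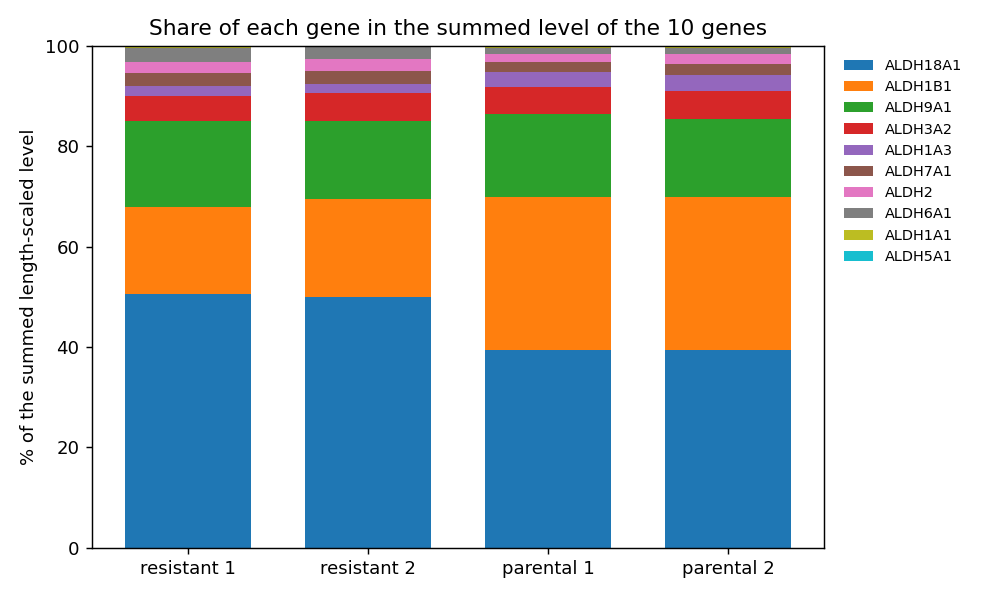
Share of each ALDH gene (% of the summed level per kilobase of exon of the 10 genes) in each library, resistant libraries on the left. ALDH18A1 takes up 49.9% to 50.6% in resistant and 39.4% in parental libraries, and ALDH1B1 17.3% to 19.7% against 30.4% to 30.5%.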

How the data were processed

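RNA sequencing of 2 resistant and 2 parental libraries was analysed from 1 deposited table. The authors deposited signal values per gene, which are fragment numbers multiplied by a factor for each library and not divided by gene length. A step of 0.753 to 0.956 per library turned 93.8% to 94.3% of the values above 0 into whole numbers (tolerance 0.05), with totals of 27019137 to 30759939 fragments. Per the submitters' processing notes, the tools include Cufflinks 2.2.1, Cuffdiff, HISAT2 2.1.0, SAMtools 1.2, Trimmomatic 0.36 and bcl2fastq, and the build is GRCh38.p10. The labels' protocols name Trizol for extraction and a strand-specific library kit. How strand was handled in counting, which annotation was used and how values were scaled is not given in the sources used here.

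Genes with a value of at least 10 in at least 2 libraries and a sum of at least 15 were kept. The count test planned as an alternative was not used, since the deposited values are scaled and the steps did not turn all of them into whole numbers. Values were tested as log2(value + 1) in limma 3.58.1 under R 4.3.3, using its mean-variance trend and robust moderation, with group as the only term. Tests were two-sided and Benjamini-Hochberg adjusted over all genes, and an adjusted p under 0.05 was a call. Fold changes on this scale understate the change of low genes. The fit was tested on simulated data. Intervals are limma's 95% intervals. GENCODE 29 supplied symbols, coordinates (GRCh38, counted from 1), exon lengths and transcripts for 57881 IDs. The genes and lists were chosen with earlier results of these data known. From each list, up to 3 genes with the smallest adjusted p among those called were named, with the largest called change in the other direction. Some genes that this rule or the lists name are not reported here. The labels call the replicates biological, and no label links a number to a culture or a day.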

Additional observations from a re-analysis of the deposited data

How the results depend on the processing

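Over 13 alternative settings (3 other scalings, 2 pseudocounts, 2 filters, the replicate block, a plain variance model and 4 fits without 1 library), 109 of 129 values of the 10 ALDH genes kept their direction and their side of the threshold. ALDH1A3, ALDH1B1 and ALDH6A1 passed in all 13. Without the trend and robust moderation, 3686 genes were called, 1 ALDH gene rose and 17 list genes rose, against 5991, 3 and 28. Leaving out 1 library gave 3528 to 5435 called genes, 1 to 4 ALDH genes higher, 2 lower in each case, and 16 to 27 list genes higher. Genes that did not pass changed sign in places. ALDH3A2 had 0.0341 with scaling to the library total and −0.1685 to 0.0462 with 1 library left out. ALDH9A1 had 0.0926 with scaling to the total, 0.0263 with median-of-ratios and 0.0405 with TMM factors, and −0.0353 to 0.0299 with 1 library left out. ALDH5A1 ran from −0.544 to 0.0636 and ALDH3B2 from −0.29 to 0.46 with 1 library left out. The cause was not tested.

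The replicate numbers are shared between the groups but not tied to a day. Same-numbered deviations correlated at 0.265 over 16132 genes with only 2 pairs. Neither this nor the labels settle whether the numbers pair the cultures, so the fit without the block was kept. With the replicate block 8624 genes were called, 4 ALDH genes rose, ALDH2 (adjusted p = 3.71e-05) among them, 2 fell, ALDH16A1 was called lower (6.16e-04), and 36 list genes rose and 22 fell. Without genes of chromosome 10 beyond 90 Mb, a choice made after the data were seen, 2 ALDH genes and 25 list genes rose. An edgeR test on whole fragments was not run, since the steps turned only 93.8% to 94.3% of the values above 0 into whole numbers. Depth limits ALDH1A1 and ALDH5A1, which rest on at most 37 fragments in a library.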
